A study of Mus musculus with 6 samples.

Results

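The genes described here encode the proteins that repair broken DNA by homologous recombination, undo DNA interstrand crosslinks in the Fanconi pathway, signal stalled replication to the checkpoint, and help correct mismatches. The group was a list of 33 gene symbols, and all 33 were found among the 20325 genes of the deposited table. RNA was sequenced from C3H10T1/2 cells, an established mesenchymal progenitor line derived from C3H mouse embryos, at passage 10 to 15. The control group (n = 3) was parental cells given scrambled small interfering RNA. The knockdown group (n = 3) was parental cells given small interfering RNAs against Ring1a and Ring1b, which are encoded by Ring1 and Rnf2. The time from treatment to harvest is unstated in the labels, and no other allele or agent was named for either group. A knockdown of this kind lowers the targets without deleting them, and all 6 libraries came from the same line.

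Polycomb repressive complex 1 silences genes and marks their histone H2A with ubiquitin, and Ring1a and Ring1b are its ligase subunits. In homologous recombination a broken end is trimmed to single strands, the Brca1, Bard1, Palb2 and Brca2 proteins prepare these for strand exchange, and the sister chromatid is copied. The Fanconi core complex attaches ubiquitin to the Fancd2 and Fanci proteins at a crosslink, and the Atr and Chek1 kinases hold the cell cycle while forks are repaired. Many genes of these pathways are transcribed mainly in S and G2 phase, so that in culture their RNA level also follows how many cells are cycling. In bulk RNA, a larger share of cycling cells and more RNA per cell cannot be told apart.

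Each value is an estimated count of reads per gene, median-normalized by the authors. A log2 fold change is knockdown minus control on log2(value + 1), a scale that makes changes of low genes look smaller than they are. Rnf2 ranged from 799 to 829 over control libraries and from 76.5 to 152 over knockdown libraries, and Ring1 from 336 to 386 and from 162 to 268. With all 6 libraries the fall of Rnf2 passed (log2 fold change −2.82, limma adjusted p = 0.00946). That of Ring1 did not (log2 fold change −0.86, limma adjusted p = 0.104). Depth estimated from the value of 1 read ran from about 4580000 reads in knockdown replicate 2 to 51810000 reads in control replicate 1, with 5447000 reads in control replicate 2. Knockdown replicate 2 stood apart from the rest. Across genes its log2 values correlated with the other libraries at 0.821 to 0.867, against 0.944 to 0.993 for all other pairs, and 83 ribosomal protein genes held 20.6% of its summed values, where the other libraries had 5.07 to 5.81%. Results are therefore given with it and without it. Without it, only knockdown replicates 1 and 3 were compared with the 3 controls. That library was singled out from these same data, and the standard errors and p-values of the fit without it hold none of its spread. Mesenchymal marker genes were abundant (a sum of 276486 to 392414 per library over 10 genes), while 8 leukocyte markers summed to 24.3 to 28.6 over controls and 34.1 to 59.5 over knockdowns, with Cd3e at 0 throughout and Ptprc at 0 in the controls. For 7 endothelial markers these sums were 97.7 to 111 and 111 to 166, mostly Tek, and for 8 epithelial markers 17.5 to 31.6 and 18.5 to 42.5, with Epcam between 0 and 4.25. The part of other cell types in the results was not tested.

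Most of the 33 genes were higher in knockdown replicates 1 and 3 than in any control, and 5 passed the test with every library. With all 6 libraries 5 members rose and 0 fell at a limma adjusted p under 0.05, which is 15.2% of the members, where 3.2% of the 12085 tested genes rose and 1.78% fell. The 5 were Exo1, Rad54l, Fancb, Fancd2 and Fanci. All 33 members passed the filter on low values, and their median log2 fold change was 0.61 against 0.01 over all tested genes. With knockdown replicate 2 left out, 25 members rose and 1 fell, where 23.8% of 11995 tested genes rose and 26.1% fell, and the members' median was 0.76 against −0.02. All 5 genes called with every library were among those 25. The call of those 5 rested on the full set: without any 1 of the controls or without knockdown replicate 1 or 3, limma called 0 members, with smallest adjusted p from 0.0561 to 0.0977. The loss was not particular to the members. Over all genes limma called 0 without any 1 control. It called 7 higher and 21 lower without knockdown replicate 1, and 37 and 57 without replicate 3. Scaling libraries by their totals left 1 member called higher (3.03%), where 1.52% of all tested genes rose. A replicate block left 0 members and 0 genes.

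The gap between these counts came with knockdown replicate 2. All 3 knockdowns lay above all 3 controls in 15 members and below them in 2, which compares with 20.5% and 23.7% of all tested genes. Knockdown replicates 1 and 3 lay above all controls in 25 members and below them in 2, against 32.2% and 35.5% of all tested genes. Among the 25 that rose without it, knockdown replicate 2 lay above all controls in 15, within the control range in 4 and below all controls in 6. Knockdown replicates 1 and 3 gave near-equal values, with a ratio of 0.832 to 1.21 in every member. In knockdown replicate 2 the members rested on few reads, from about 7 for Palb2 to 137 for Rad50, with a median of 39. A 95% Poisson interval for counting error alone was computed for each of these values. Among the 15 above all controls, it began below the highest control in Rad51c, Rad54b, Blm, Fanca, Chek1, Clspn, Msh6 and Pms2. Among the 6 below all controls, it ended above the lowest control in Brca2, Bard1, Palb2 and Rad50, and below it in Fancm and Topbp1.

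**Figure D1:**
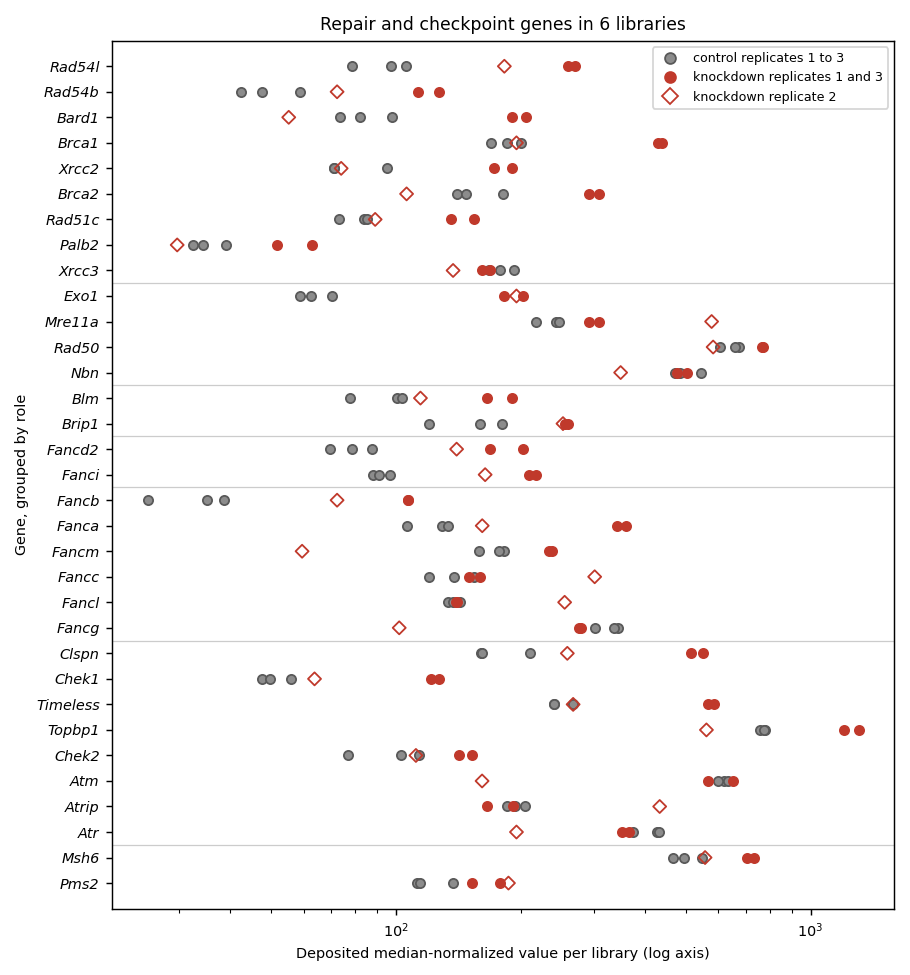
Deposited median-normalized value (x axis, log scale) of each of the 33 genes (y axis, grouped by role) in each library; grey circles are the 3 controls, filled red circles knockdown replicates 1 and 3, and open diamonds knockdown replicate 2. In 25 genes both filled red circles lie to the right of all grey circles. The diamond lies left of both red circles in 27 genes, a count that was not made over all genes.

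Strand exchange held 9 members, and 8 of them rose and 0 fell with knockdown replicate 2 left out, where 23.8% of all tested genes rose and 26.1% fell. Rad54l, a motor protein that helps a strand invade its partner duplex, measured 106, 97.7 and 78.6 in control libraries 1 to 3 against 271, 183 and 260 in knockdown libraries 1 to 3. All 3 knockdowns exceeded all controls, and the rise passed with every library (limma adjusted p = 0.0345, log2 fold change 1.32, SE 0.23). Its relative Rad54b measured 58.8, 47.6 and 42.5 against 113, 72.3 and 127. Knockdown replicate 2 rested there on about 17 reads (95% Poisson interval 42.1 to 116), which spans every control. The groups did not overlap here either, but the difference missed the threshold with 6 libraries (limma adjusted p = 0.109) and passed without knockdown replicate 2 (log2 fold change 1.27, SE 0.18, limma adjusted p = 0.000106). In GENCODE M21 the exons of Rad54b share 2068 bases with Fsbp on the same strand, so its value may hold reads of that gene.

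Brca1 and Bard1, which together form the ubiquitin ligase that promotes end trimming, were both high in knockdown replicates 1 and 3 alone. Brca1 measured 200.4, 185 and 170 in control libraries against 439, 196 and 428 in knockdown libraries. Knockdown replicate 2 was inside the control range and the other knockdowns were more than 2-fold above it. Bard1 measured 98.0, 73.3 and 82.3 against 191, 55.3 and 206, with knockdown replicate 2 below every control on about 13 reads (95% Poisson interval 29.4 to 94.5 in the same unit, counting error only). Neither passed with all libraries (limma adjusted p = 0.248 for Brca1 and 0.5004 for Bard1). Without knockdown replicate 2 the log2 fold changes were 1.23 (SE 0.10, limma adjusted p = 9.55e-07) for Brca1 and 1.23 (SE 0.15, limma adjusted p = 2.77e-05) for Bard1.

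Brca2, which acts on the trimmed single strands, measured 182, 140.3 and 148 in control libraries against 293, 106 and 310 in knockdown libraries. Its transcript is the longest of the group, at 10620.5 nt. Palb2, the protein that bridges Brca1 and Brca2, was among the lowest members per length, with 39.0, 32.6 and 34.3 against 62.8, 29.8 and 51.9. For both genes knockdown replicate 2 lay below all controls, and both rose without it, 1.92-fold for Brca2 and 1.62-fold for Palb2.

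The genes Xrcc2, Rad51c and Xrcc3, whose products assist strand exchange, gave unlike calls. Xrcc2 measured 95.5, 71.0 and 71.2 in control libraries against 173, 73.9 and 191 in knockdown libraries, and Rad51c measured 83.8, 85.2 and 73.2 against 154, 89.3 and 136. Both rose without knockdown replicate 2, 2.29-fold for Xrcc2 (limma adjusted p = 6.23e-05) and 1.80-fold for Rad51c (limma adjusted p = 0.000421). Xrcc3 measured 168, 192 and 179 against 162, 138 and 169, with overlapping groups, and was the strand exchange member that did not rise (log2 fold change −0.12 without knockdown replicate 2, 95% interval −0.36 to 0.12).

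Of the 4 genes of end sensing and trimming, Exo1 changed most. Exo1, the exonuclease that extends resected ends and also serves mismatch repair, measured 70.5, 62.6 and 58.7 in control libraries against 182, 196 and 203 in knockdown libraries, so that all 3 knockdowns were close together and above every control. It rose 3.02-fold with all 6 libraries (log2 fold change 1.58, SE 0.16, limma adjusted p = 0.00969), which was the smallest adjusted p of the group. The subunits of the Mre11a, Rad50 and Nbn complex, which senses broken ends throughout the cell cycle, had smaller fitted changes without knockdown replicate 2. Mre11a measured 244, 218 and 248 against 292, 578 and 309, and Rad50 measured 671, 656 and 604 against 763, 582 and 766. Without knockdown replicate 2 these 2 rose 1.27-fold and 1.19-fold. Nbn did not pass, at 472, 484 and 544 against 503, 349 and 477 (log2 fold change −0.03 without knockdown replicate 2, 95% interval −0.20 to 0.15).

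Both helicase genes had non-overlapping groups with all libraries, although neither passed the test there (limma adjusted p = 0.195 for Blm and 0.0998 for Brip1). Blm, which unwinds recombination intermediates, measured 101, 77.7 and 104 in control libraries against 191, 115 and 166 in knockdown libraries. Its knockdown replicate 2 rested on about 27 reads (95% Poisson interval 75.6 to 167), which spans every control. Brip1, the helicase bound by Brca1, measured 160.2, 181 and 120.2 against 260, 253 and 256, and there knockdown replicate 2 matched the other knockdowns. Without knockdown replicate 2 both rose, 1.89-fold for Blm and 1.68-fold for Brip1.

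The Fanconi pair that receives the ubiquitin rose with every library in the fit. Fancd2 measured 78.7, 87.7 and 69.6 in control libraries against 168, 140.3 and 203 in knockdown libraries (log2 fold change 1.10, SE 0.21, limma adjusted p = 0.0431). Fanci measured 96.7, 88.4 and 91.1 against 209, 164 and 218 (log2 fold change 1.08, SE 0.18, limma adjusted p = 0.0318). In both genes each knockdown exceeded each control. Exons of Fancd2 share 256 bases with Fancd2os on the opposite strand. Exons of Fanci share 665 bases with Polg on the opposite strand, and Polg stood at 776 to 852 in the controls and 710 to 792 in the knockdowns.

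Of the 5 core complex genes and Fancm, 3 rose without knockdown replicate 2, 1 fell and 2 did neither, beside 23.8% of all tested genes that rose and 26.1% that fell. The 1 that fell is below the share over all genes. Fancb, a core subunit beside the ligase Fancl, measured 38.6, 35.1 and 25.3 in control libraries against 107, 72.3 and 107 in knockdown libraries, and passed with all libraries (log2 fold change 1.50, SE 0.27, limma adjusted p = 0.0377). Fanca, another core subunit, measured 129, 107 and 133 against 341, 162 and 360. Its groups did not overlap, yet it missed the threshold with 6 libraries (limma adjusted p = 0.143) and passed without knockdown replicate 2 (log2 fold change 1.51, SE 0.12, limma adjusted p = 9.93e-07). Exons of Fanca share 552 bases with Zfp276 on the opposite strand, whose values were lower in the knockdowns (334 to 494) than in the controls (670 to 732).

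Fancg, Fancc and Fancl kept near or below their control levels in knockdown replicates 1 and 3. Fancg, which binds Fanca in the core complex, measured 344, 336 and 303 in control libraries against 280, 102 and 277 in knockdown libraries, lower in 3 of 3. It fell without knockdown replicate 2 by 0.23 on the log2 scale (SE 0.09, limma adjusted p = 0.0453), but not with all libraries (limma adjusted p = 0.384) nor with a length correction added to that fit (limma adjusted p = 0.0574). Fancc measured 138, 120.3 and 154 against 159, 302 and 149.9, and the ligase gene Fancl measured 134, 138 and 143 against 140, 256 and 141. In both, knockdown replicate 2 alone was high, and the other knockdowns were at or within a small step of the control range. Exons of Fancl share 462 bases with Vrk2 on the opposite strand, at 103 to 129 in the controls and 98.8 to 144 in the knockdowns. Fancm, the translocase that recruits the complex, measured 183, 178 and 159 against 238, 59.5 and 234. Its fitted change was −0.21 with all libraries and 0.45 without knockdown replicate 2, where it rose.

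**Figure D2:**
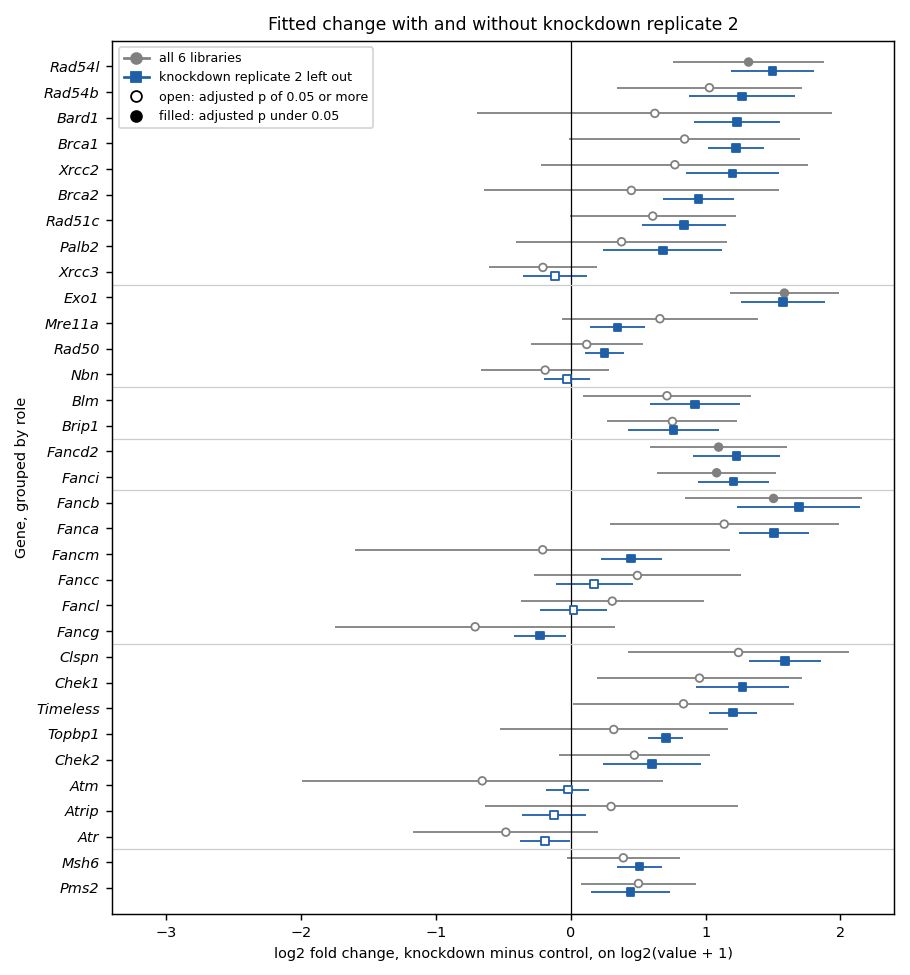
Fitted log2 fold change (x axis, knockdown minus control) with its 95% interval for each gene (y axis, grouped by role), with all 6 libraries in grey and with knockdown replicate 2 left out in blue; filled symbols have an adjusted p under 0.05. The filled grey symbols are the 5 genes called with every library, and 25 filled blue symbols lie right of 0 and 1 lies left of it.

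Among the 8 checkpoint genes none passed with all 6 libraries (0 rose and 0 fell in limma), where 3.2% and 1.78% of all tested genes did. At an unadjusted limma p under 0.05, 3 were higher and 0 lower, where 2473 of 12085 tested genes passed in either direction. Without knockdown replicate 2, 5 rose and 0 fell, beside 23.8% and 26.1% of all tested genes. The 5 were Clspn, Chek1, Timeless, Topbp1 and Chek2. Clspn, encoding the claspin adaptor through which Atr activates Chek1, measured 211, 160.4 and 162 in control libraries against 515, 259 and 551 in knockdown libraries. Chek1, the kinase that receives it, measured 55.8, 47.6 and 49.7 against 127, 63.8 and 122. All 3 knockdowns exceeded all controls in both genes. For Chek1, knockdown replicate 2 rested on about 15 reads (95% Poisson interval 35.7 to 105), which spans every control. For Clspn that interval, 198 to 333, held the highest control. Without knockdown replicate 2 the log2 fold changes were 1.59 (SE 0.12, limma adjusted p = 1.06e-06) for Clspn and 1.27 (SE 0.16, limma adjusted p = 3.67e-05) for Chek1.

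Timeless, a fork protection protein, measured 268, 240.6 and 240.3 in control libraries against 584, 268 and 566 in knockdown libraries. Without knockdown replicate 2, which matched the highest control, it had the smallest adjusted p of the group (2.30-fold, SE of the log2 fold change 0.08, limma adjusted p = 3.51e-07). Topbp1, which switches on Atr, measured 778, 757 and 772 against 1203, 561 and 1307, and was lower in knockdown replicate 2 than in any control. Chek2, the kinase downstream of Atm, rose less, 1.50-fold without knockdown replicate 2, from 114, 103 and 76.9 to 152, 112 and 142.

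The sensor kinase genes Atm and Atr, and Atrip, were not called in either direction. Atm measured 619, 631 and 598 in control libraries against 565, 162 and 650.2 in knockdown libraries, and without knockdown replicate 2 its log2 fold change was −0.02 (95% interval −0.18 to 0.14). Atr measured 426, 373 and 431 against 352, 196 and 365. Each knockdown of Atr was below each control, and the difference missed the threshold with and without knockdown replicate 2 (limma adjusted p = 0.374 and 0.0793). With a length correction the log2 fold change of Atr was −0.03 with all libraries (limma adjusted p = 0.889). Without knockdown replicate 2 it was then −0.08 (95% interval −0.28 to 0.12). Atrip, the partner that brings Atr to single strands, measured 205, 185 and 194 against 166, 433 and 192, high in knockdown replicate 2 alone. The intervals without knockdown replicate 2 for Atm, Atr and Atrip ended at 0.14, −0.01 and 0.11, under the log2 fold changes of the 5 checkpoint genes that rose, the lowest of which was 0.60 for Chek2.

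The mismatch repair genes of the group both had non-overlapping groups with small differences. Msh6, part of the sensor for single mismatches, measured 548, 496 and 465 in control libraries against 729, 557 and 701 in knockdown libraries. Its knockdown replicate 2 had a 95% Poisson interval of 466 to 661, which holds control replicates 1 and 2. Pms2, a subunit of the nicking enzyme, measured 137, 113 and 115 against 178, 187 and 153. Exons of Pms2 share 363 bases with Gm42421 and 58 with Rsph10b on the same strand, so its value may hold reads of those genes. Msh6 and Pms2 rose 1.42-fold and 1.36-fold without knockdown replicate 2, with limma adjusted p of 0.000192 and 0.0168.

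Control levels per transcript length spanned 8.20 for Exo1 to 197 for Nbn. In the controls Nbn had the highest value per kilobase of transcript, ahead of Topbp1 at 147, Rad50 at 125, Msh6 at 118.3 and Fancg at 118.2. Fancb at 11.2 and Palb2 at 12.04 followed Exo1 at the low end. In knockdown replicates 1 and 3 Exo1 reached 24.7 and Fancb 36.3 per kilobase, still below the control values of Nbn, Topbp1, Rad50, Msh6 and Fancg. Of the 25 genes that rose without knockdown replicate 2, 13 did so at least 2-fold, and the folds ran from 1.19 for Rad50 to 3.25 for Fancb with a median of 2.29.

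Transcript length moved with the values of knockdown replicate 2. Members were long, with a median of 3879.5 nt against 2774 nt over tested genes, and none lay in the shortest of 4 equal length bins. In the longest bin (4121 nt and above) knockdown replicate 2 differed from the mean of the other knockdowns by a median of −0.94 log2 units over all genes and −0.95 over 16 members. In the next bin down these medians were −0.38 and −0.56, over 9 members, and in the one below that 0.11 and −0.44, over 8. As a description across genes that share the same libraries, length and this difference gave a Spearman correlation of −0.60 over 10893 tested genes and −0.32 over the 33 members. Exo1, at 7796 nt, and Brip1, at 6931 nt, were long but differed by 0.03 and −0.03. With a length correction of every library, 14 members rose and 0 fell, against 7.12% and 4.47% of 10893 genes, and these 14 included all 5 called without it. With the correction and without knockdown replicate 2, the same 25 members rose and 0 fell, where 27.5% of genes rose and 24.3% fell. Whether length sets the values of that library was not tested beyond this.

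**Figure D3:**
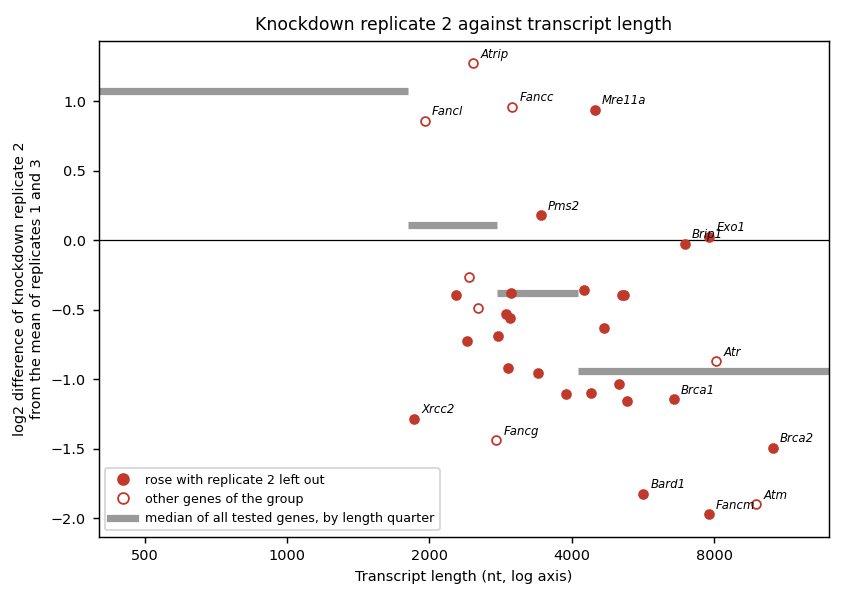
Log2 difference of knockdown replicate 2 from the mean of knockdown replicates 1 and 3 (y axis) against transcript length in nt (x axis, log scale) for the 33 genes; grey bars are the medians of all tested genes in 4 length bins. The bars step from 1.08 in the shortest bin to −0.94 in the longest. Of the 33 genes 27 lie below 0, beside 5879 of 10893 tested genes.

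Promoter sequences are shown because most members rose together. RefSeq windows (GRCm38.p6, 250 bases before to 50 after the start) were matched by symbol for 27 of the 33 genes. Binding motifs were searched as letters on both strands, each counted whether or not it overlapped another: TTTGGCGC, TTTCGCGC, TTTCCCGC and TTTGCCGC for E2F, the factors of S phase genes; CCAAT for NF-Y; TTTGAA and TTCGAA for the cell cycle homology region of mitotic genes; and CACGTG for the E-box. An E2F motif was in the window of 8 of 27 members (29.6%), against 4.76% of 8631 tested genes with a window and 2.60% of all 27025 genes. CCAAT was in 17 members (63.0%, against 43.8% of tested genes), a cell cycle homology motif in 2 (7.41%, against 16.0%), and the E-box in 0 (against 11.98%). A match is a description of letters and not of binding.

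The E2F motif was in 7 of the 20 windows of members that rose without knockdown replicate 2 and in 1 of the other 7, that of Fancg. Among those that rose, Clspn, Msh6 and Rad51c had the match after or across the start. Upstream stretches are given 5′ to 3′ on the strand of the gene, with E2F and CCAAT letters of either orientation in capitals. Bard1, Brca2, Topbp1 and Chek2 rose without knockdown replicate 2 and carry an E2F motif before the start. Fancg carries the same letters as Bard1 and did not rise. Chek2, Rad54l, Fanca, Brip1 and Clspn carry CCAAT letters in the stretch shown, and all of these rose. CCAAT was in 13 of the 20 members that rose (65.0%) and in 4 of the other 7 (57.1%). Those that carry it and did not rise are Xrcc3, Atm, Atrip and Fancc.
Bard1 (chr1:71103154-71103201, minus strand): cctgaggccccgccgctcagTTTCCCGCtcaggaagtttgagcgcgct
Brca2 (chr5:150522433-150522480, plus strand): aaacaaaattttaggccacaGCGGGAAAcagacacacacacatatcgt
Topbp1 (chr9:103305178-103305225, plus strand): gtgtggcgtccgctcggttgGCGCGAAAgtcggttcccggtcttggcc
Chek2 (chr5:110839777-110839981, plus strand): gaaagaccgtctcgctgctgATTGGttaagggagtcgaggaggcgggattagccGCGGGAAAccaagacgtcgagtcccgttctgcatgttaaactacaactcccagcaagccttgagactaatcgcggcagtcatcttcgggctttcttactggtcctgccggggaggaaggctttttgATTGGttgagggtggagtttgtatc
Fancg (chr4:43010326-43010373, minus strand): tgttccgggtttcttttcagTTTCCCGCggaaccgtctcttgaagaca
Rad54l (chr4:116123716-116123760, minus strand): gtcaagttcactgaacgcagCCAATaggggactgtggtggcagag
Fanca (chr8:123318577-123318646, minus strand): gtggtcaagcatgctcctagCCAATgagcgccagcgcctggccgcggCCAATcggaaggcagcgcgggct
Brip1 (chr11:86201203-86201312, minus strand): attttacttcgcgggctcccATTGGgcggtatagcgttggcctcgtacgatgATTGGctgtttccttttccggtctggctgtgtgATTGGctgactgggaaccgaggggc
Clspn (chr4:126556891-126556979, plus strand): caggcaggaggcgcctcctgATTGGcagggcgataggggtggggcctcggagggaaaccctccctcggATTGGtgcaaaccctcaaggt

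In these windows the E2F letters began 209 bases before the start in Bard1, 168 in Brca2, 129 in Topbp1, 152 in Chek2 and 52 in Fancg. CCAAT letters lay at 50 and 23 bases before the start in Fanca and at 99, 67 and 34 in Brip1. Clspn has an E2F motif after its start, outside the stretch shown.

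Other genes of the same pathways were counted from lists of their own, and the counts below leave out knockdown replicate 2, to be read against the 23.8% that rose and 26.1% that fell among all tested genes. Of 29 other recombination genes, 16 rose and 5 fell, and 4 rose with all 6 libraries. Among these were Rad51ap1, a gene of strand exchange, and Eme1, part of a junction-cutting nuclease, with log2 fold changes of 1.96 and 1.34 (limma adjusted p = 0.0259 and 0.0138). Of 30 other checkpoint genes 15 rose and 3 fell, and of 16 other Fanconi genes 6 rose and 5 fell. With all 6 libraries 2473 of 12085 tested genes had an unadjusted limma p under 0.05, in either direction. There limma called 0 genes of these last lists after adjustment. At the unadjusted threshold 9 of the checkpoint and 2 of the Fanconi genes were higher and 0 and 1 lower. Their most abundant genes had log2 fold changes there of −0.38 for Trp53bp1 and −0.15 for Cdc25b, and of −0.85 for Rev3l and −0.48 for Wdr48. These do not stand for their lists. With all 6 libraries the median was 0.22 for the checkpoint genes, 21 of 30 being positive. It was 0.07 for the Fanconi genes, 8 of 16 being positive.

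**Figure D4:**
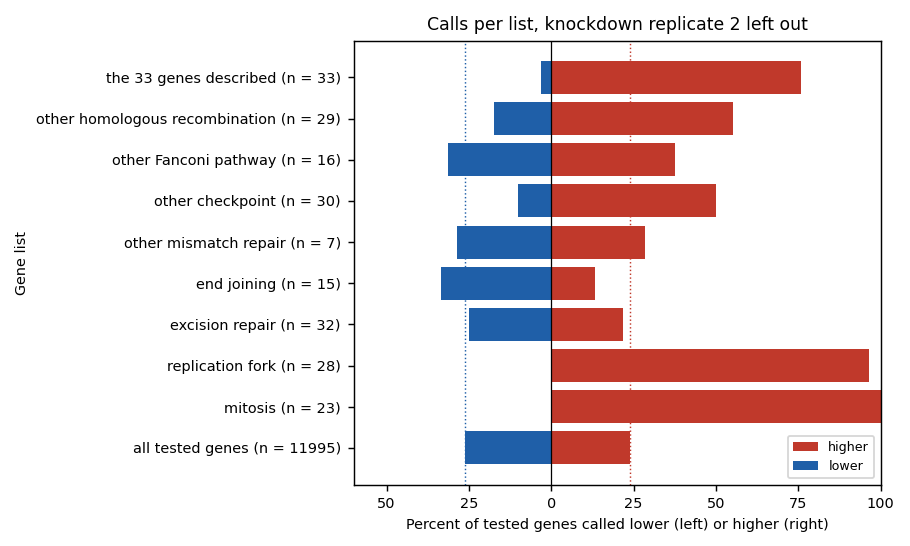
Percent of tested genes called higher (red, right) or lower (blue, left) in each list (y axis, with the number tested) with knockdown replicate 2 left out; dotted lines mark the percents over all tested genes. The 33 genes described stand at 25 higher and 1 lower, beside 27 of 28 higher in the replication fork list, 23 of 23 in the mitosis list and 2 of 15 in the end joining list.

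End joining, excision repair and other mismatch repair genes were counted in the same way, beside 23.8% of all tested genes that rose and 26.1% that fell. Of 15 end joining genes, which rejoin broken ends directly, 2 rose and 5 fell, and Xrcc5, encoding the Ku80 protein that caps ends, fell with all libraries, from 801 ± 25.5 to 512, 446 and 474 in the knockdowns (log2 fold change −0.75, limma adjusted p = 0.0407). Of 32 excision repair genes 7 rose and 8 fell, with Fen1, the flap nuclease shared with replication, the 1 that rose with all libraries (log2 fold change 1.40, limma adjusted p = 0.0259). Of 7 other mismatch repair genes 2 rose and 2 fell. With all 6 libraries 2473 of 12085 tested genes had an unadjusted limma p under 0.05, in either direction. Of the 7 mismatch repair genes 2 were then higher and 1 lower, and limma called 0 after adjustment. The most abundant there were Pcna, the replication clamp, and Lig1, a DNA ligase, with log2 fold changes of 0.77 and 1.15 (limma adjusted p = 0.0639 and 0.0955). Only these 2 of the 7 had a positive log2 fold change with all 6 libraries, and the median of the 7 was −0.19.

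Proliferation genes rose beside the members. Without knockdown replicate 2, 27 of 28 replication fork genes rose and 0 fell, and 23 of 23 mitosis genes rose and 0 fell. Of all tested genes 23.8% rose and 26.1% fell there. The medians were 0.92 and 1.42 beside 0.76 for the 33 members. With all 6 libraries 10 and 15 of them rose, and their summed values were 20093 to 21441 and 22099 to 29309 in the knockdowns against 10158 to 11182 and 9914 to 11711 in the controls. The smallest adjusted p with all libraries were those of Mcm5, Chaf1a and Mcm10 among replication fork genes (log2 fold changes 1.45, 1.47 and 1.48) and of Aurka, Ube2c and Cdc20 among mitosis genes (1.91, 1.72 and 1.55). Of 19 genes of the E2F family and its partners 12 rose and 1 fell without knockdown replicate 2, beside the same shares of all tested genes. With all 6 libraries 2 rose and 0 fell, and the median log2 fold change of the 19 was 0.15. Their summed values overlapped, at 6180 to 9368 in the knockdowns and 6419 to 6838 in the controls. E2f6, a repressor that joins variant Polycomb complexes, rose with all libraries from 248 ± 12.3 (SD, n = 3) to 823, 616 and 860.0 (log2 fold change 1.61, limma adjusted p = 0.0116), and Mybl2 rose by a log2 fold change of 1.23 (limma adjusted p = 0.0276). The part of cell cycling in the members' rise was not tested.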

How the data were processed

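RNA of C3H10T1/2 cells was extracted with Trizol and made into 3 control and 3 knockdown TruSeq libraries, per the labels' protocols. The submitters' processing notes list Bowtie 1.0.0, RSEM 1.2.12 and build mm9. No source used here names the annotation or says whether counting used strand, so reads of a gene and an antisense partner may be mixed. The authors deposited a normalized signal per gene, called median normalized: estimated counts that need not be whole. Dividing low values (20 reads or fewer) by the worth of 1 read gave a whole number, within 0.1 read, in 88.5 to 90.8% of cases, too few for a count test. The worth of 3 reads, taken as the floor, was 0.777 in control replicate 1 and 12.8 in knockdown replicate 2.

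Genes averaging at least 10 were tested by limma 3.58.1 (R 4.3.3) on log2(value + 1), with trend and robust empirical Bayes, two-sided, and Benjamini-Hochberg adjustment over every tested gene (threshold 0.05). An exact permutation test of 3 against 3 cannot go below 0.1, so no such test was used. The script was tested on simulated data in which all 6 libraries shared the same added spread. That run held no library like knockdown replicate 2, so it cannot show how the fit handles one. The labels name no separate cultures: p-values thus reflect the spread of these samples alone, which may be technical. Replicates were compared by chi-square, and every pair differed by more than counting noise (at least 1.50 per degree of freedom).

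Lengths are medians over protein-coding transcripts of the GENCODE M21 basic set, a newer build, available for 90.1% of tested genes. Each library was corrected by lowess of its deviation from the gene mean on log length (span 0.4). Members, lists and motifs were chosen with earlier results of these data known. Every member is named; from each other pathway list, up to 3 genes called with all libraries with the smallest adjusted p, or the 2 most abundant where none was called, apart from an item that is not reported here. No list test was run. The alternatives were the pseudocount, filter, scaling, replicate block, library weights, length correction and leaving out each library.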

Additional observations from a re-analysis of the deposited data

How the results depend on the processing

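The median log2 fold change of the 33 genes stayed between 0.47 (total scaling) and 0.86 (length correction without knockdown replicate 2, chosen after seeing the data) under every alternative run. The 5 members called with all 6 libraries kept their sign. Fancm (−0.21) was called higher without knockdown replicate 2 (0.45), under library weights (0.47) and with length correction added to the former (0.56), and Atrip (0.30) was called lower under library weights (−0.24). Pseudocounts of 0.5 or 5, filters at a mean of 1 or 50, upper-quartile scaling and the plain empirical Bayes left 5 members higher and 0 lower. Total scaling, which moved the median of all genes from 0.01 to −0.14, gave 1 member higher, and 184 and 118 genes higher and lower over all genes, where the authors' scaling gave 387 and 215. The length correction gave 14 members, 776 and 487 genes; with knockdown replicate 2 also left out it gave 25 members, 2977 and 2632 genes. Library weights gave 26 members higher and 5 lower, and 4214 and 4596 genes, but the weights did not converge and put 212 on knockdown replicate 1 and 0.0141 on knockdown replicate 2. Leaving out 1 library gave 0 to 25 members higher and 0 to 1 lower, and 0 to 2855 and 0 to 3136 genes. Only knockdown replicate 2 raised the counts. Without control replicate 1, 2 or 3 or knockdown replicate 1 or 3 limma called 0 members (smallest adjusted p 0.0734, 0.0779, 0.0977, 0.0729 and 0.0561). In that order 11, 8, 9, 9 and 9 members had an unadjusted p under 0.05. Over all genes 1495 of 12116, 1529 of 12123, 1475 of 12131, 2065 of 12081 and 2482 of 12089 did. After adjustment limma called 0 genes without any 1 control, 7 higher and 21 lower without knockdown replicate 1, and 37 and 57 without replicate 3.

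With the replicate block limma called 0 members and 0 genes. At an unadjusted p under 0.05 there were 11 members, beside 1866 of 12085 tested genes. Rnf2 kept its change of −2.82 in that fit but missed the threshold (limma adjusted p = 0.102). The numbers are not shown to pair samples: deviations of same-numbered libraries correlated at 0.17, −0.05 and −0.05. Leaving out 1 library moved Rnf2 between −3.02 and −2.53 (called without knockdown replicate 2 or 3) and Ring1 between −1.06 and −0.70. Ring1 was not called in the main fit with all 6 libraries (−0.86, limma adjusted p = 0.104). It passed under total scaling (−0.9989), library weights (−1.16), length correction (−0.97), without knockdown replicate 2 (−1.06) and with both of the latter (−1.05). The causes of these shifts were not tested. Depth limits low genes most in knockdown replicate 2, where Palb2 had about 7 reads.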
